A study of Mus musculus with 15 samples.

Results

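Newly made proteins that enter the endoplasmic reticulum (ER) fold there with the help of chaperones and of disulfide isomerases, and Txndc5 (also called ERp46 or EndoPDI) is a disulfide isomerase with thioredoxin domains. The measurements here concern 9 genes of this folding machinery in mouse cortex: Txndc5, the lectin chaperones Calr and Canx, the ER Hsp70 and Hsp90 proteins Hspa5 and Hsp90b1, and the disulfide isomerases Pdia3, Pdia4, Pdia6 and P4hb. All listed transcripts with one of these gene names in the GENCODE M21 annotation were taken, which gave 12 of the 10370 transcripts in the table, and 9 of the 7740 genes that could be named. Txndc5 was chosen by its lower values in HF-HI in these same libraries, so its group difference is described and not tested. The 8 other genes were chosen by function, and the question was whether they shared the lower level of Txndc5. Every member gene had at least 1 listed transcript, and each member transcript is reported whatever its values.

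Total RNA was sequenced from the dissected cortex of male C57BL/6 mice, labelled as 12 weeks old, in a Sham group and a group given high-frequency head impacts (HF-HI), at 1 month. HF-HI mice received series of closed-skull impacts on consecutive days under isoflurane, and Sham mice had the same handling and anesthesia without impacts. There were 7 Sham and 8 HF-HI libraries. The labels number the replicates but do not say how many animals stand behind a library, so the p-values measure the spread between libraries.

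In the ER lumen, Hspa5 (BiP) binds unfolded chains, Hsp90b1 (GRP94) acts on later folding forms, and Calr and Canx hold glycoproteins by their trimmed sugars while Pdia3 forms their disulfide bonds. P4hb, Pdia4, Pdia6 and Txndc5 exchange disulfides through thioredoxin-like active sites, and P4hb is also a subunit of prolyl 4-hydroxylase. When unfolded proteins accumulate, the sensors Atf6, Ern1 and Eif2ak3 start the unfolded protein response, whose factors Atf6 and Xbp1 raise many of these genes through the ER stress response element (ERSE). Txndc5 is best known from endothelium, plasma cells and fibroblasts.

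The ERSE was searched for as CCAAT and CCACG with any 9 bases between them, on both strands, from 250 bases before to 50 bases after each start in the RefSeq promoter table (GRCm38.p6), because a shared element is 1 way in which these genes form a group. All 10 fixed letters were found in 5 of the 9 member genes (55.6%), namely Calr, Canx, Hspa5, Hsp90b1 and Pdia6, against 37 of 27025 genes in the table (0.137%) and 9 of 6015 genes that were also listed here (0.15%). The ERSE is already known as an element of many of these genes, so their share is a description and not a test. The best stretch for each gene is shown, with the fixed letters that matched in capitals and written in the direction of the motif, so that an opposite-strand stretch reads against its gene.
Calr: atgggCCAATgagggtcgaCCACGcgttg
Canx: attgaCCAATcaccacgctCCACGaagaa
Hspa5: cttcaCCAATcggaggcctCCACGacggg
Hsp90b1, first: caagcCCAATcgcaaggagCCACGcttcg
Hsp90b1, second: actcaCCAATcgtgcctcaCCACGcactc
Pdia6: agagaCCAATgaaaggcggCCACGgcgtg
Pdia3: cgcagCCAATcggcggctgCCACactgcg
Pdia4: gaccaCCAATcacgggctgCCACtcggtt
P4hb: gcggtCCAgTcagaatgcaaCACGagggg
Txndc5: tcctcCCAcgaccgcagagCCACGcctca

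On GRCm38.p6 the stretches lie at chr8:84847070-84847098 for Calr (opposite strand), chr11:50325795-50325823 for Canx, chr2:34772020-34772048 for Hspa5 and chr12:17266486-17266514 for Pdia6. The Hsp90b1 pair lies at chr10:86705633-86705661 (gene strand) and chr10:86705528-86705556 (opposite strand). Pdia3 (chr2:121413868-121413896) and Pdia4 (chr6:47813597-47813625, opposite strand) matched 9 of the 10 fixed letters, a match that 1.72% of all genes reached. P4hb (chr11:120573363-120573391) and Txndc5 (chr13:38528476-38528504, opposite strand, overlapping the start) matched 8, which 20.1% of all genes reached, although 3 promoters were searched for Txndc5. A match is a run of letters in a window, and no measurement here bears on binding.

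The libraries differed in depth in a way that followed the groups. The summed reads of the listed transcripts, recovered from the deposited values, ranged from 5798810 to 10582858 across Sham and from 3496103 to 8666307 in HF-HI. On average, the log2 size factor of DESeq2, the scaling for depth, differed by −0.55 in HF-HI against Sham (exact two-sided permutation p = 0.0280). HF-HI replicates 2, 4 and 7 had the lowest size factors of all, 0.501 to 0.650, and the other 12 libraries lay above 0.8. HF-HI replicate 2 also stood apart on the first principal component (14.3% of the variance), at 12.6 against −3.35 to 0.721 in the other libraries. Values of several members are therefore also given for the 7 Sham and 5 HF-HI libraries with a size factor above 0.8, and without HF-HI replicate 2. All 12 cortical excitatory neuron marker genes of a fixed list were present, with summed levels of 12725 to 13584 normalized counts across Sham and 12638 to 14357 in HF-HI. Of 12 striatal marker genes 10 were present, at 10126 to 14848 normalized counts across Sham and 7421 to 14480 in HF-HI, and the choroid plexus gene Ttr, the only one of 12 choroid markers present, ranged from 35.0 to 6685 normalized counts across Sham and from 21.0 to 8663 in HF-HI. At an unadjusted limma p under 0.05, 3 of 17 striatal, 2 of 18 astrocyte and 1 of 8 microglial marker transcripts were lower, 3 of 19 cortical neuron transcripts were higher, and 0 of 22 oligodendrocyte transcripts passed, where 3.9% of all transcripts were lower and 4.94% higher. The shares called were 17.6% for the striatal, 11.1% for the astrocyte, 12.5% for the microglial and 15.8% for the cortical list.

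Txndc5 was lower in every HF-HI library than in any Sham library. Its single listed transcript (ENSMUST00000035988, GRCm38 chr13:38500079-38528490, minus strand, 10 exons, 2843 bases) had 319 ± 23.3 normalized counts in Sham (SD, n = 7) and 217 ± 37.7 in HF-HI (SD, n = 8), which is 68.0% of Sham and a log2 ratio of −0.56. The normalized count is the read count divided by the size factor, and the log2 ratio is that of the group means, HF-HI over Sham.

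In Sham replicates 1 to 7 the Txndc5 level was 302.8, 302.5, 316.7, 362.5, 293.0, 326.8 and 328.5 normalized counts. In HF-HI replicates 1 to 8 it was 239.8, 167.7, 209.9, 161.8, 246.6, 250.8, 201.9 and 257.5 normalized counts. The groups did not overlap, and the HF-HI values spread more widely than the Sham values. A complete separation with lower values in HF-HI was seen for 6 of all 10370 transcripts (0.0579%), and a log2 ratio at or under that of Txndc5 for 81 (0.781%), from which nothing further can be read since this contrast chose the gene.

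The 3 lowest Txndc5 values belonged to the 3 HF-HI libraries of lowest depth, at 162 to 202 normalized counts. Among the 5 deeper HF-HI libraries the level was 241 ± 18.5 normalized counts (SD, n = 5, range 210 to 257.5). Their place below all 7 Sham libraries follows from the separation of the whole group and is no check on depth. In these deeper libraries the log2 ratio was −0.40. Without HF-HI replicate 2 it was −0.51. On the deposited variance-stabilized scale (VSD), which compresses low counts, the Txndc5 difference was −0.15, and it was −0.11 with log2 size factor as a covariate. Between 81 and 534 reads stood behind each Txndc5 value, so counting error is larger in the shallow libraries, and the part of depth in the difference was not tested beyond these values.

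The endothelial marker list was given beside Txndc5 because that gene is abundant in endothelium. Of its 20 genes 8 were listed, with 9 transcripts of which 0 passed an unadjusted limma p under 0.05, against 8.83% of all transcripts. With so few transcripts a count of 0 is near that share. Their summed level was 2379 to 2547 normalized counts across Sham and 2140 to 2432 in HF-HI, a log2 ratio of the mean sums of −0.06. Their median log2 ratio was −0.05 (−0.18 to 0.19), beside −0.00 for all transcripts, and their part in the Txndc5 value was not tested. In a bulk tissue, fewer cells of a type and less RNA per cell cannot be told apart.

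**Figure D1:**
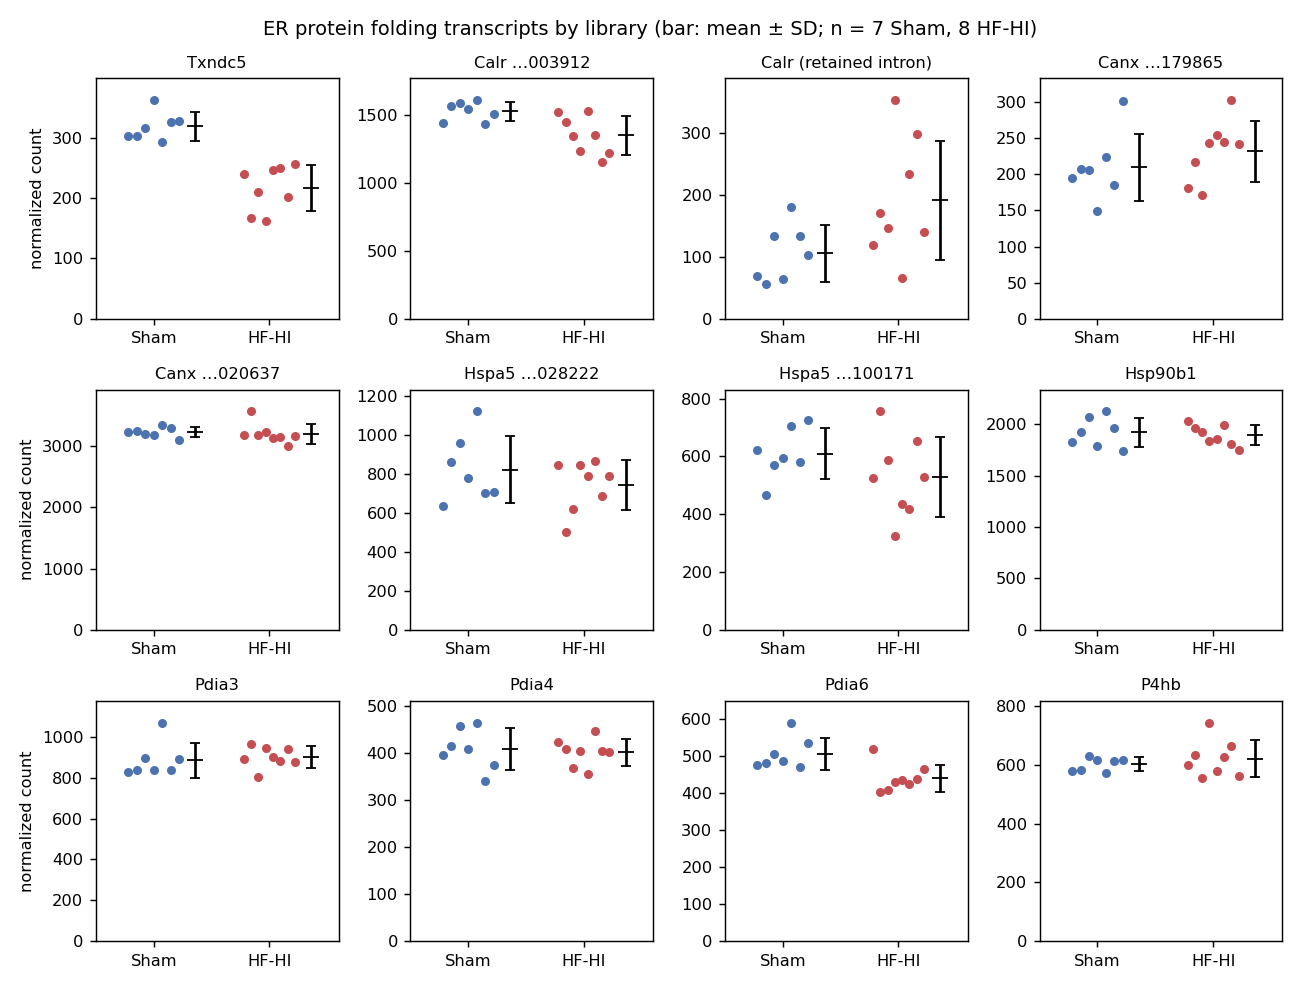
Normalized counts (y axis, from 0) of the 12 member transcripts in each library, Sham in blue and HF-HI in red, with the mean ± SD beside the points (n = 7 and 8). Txndc5 is the panel in which the groups do not overlap, with 293.0 to 362.5 across Sham and 161.8 to 257.5 in HF-HI.

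The 8 other folding genes did not show this separation. Of their 11 transcripts, 3 (27.3%) had an unadjusted p under 0.05 in limma, against 8.83% of all 10370 transcripts. Coding Calr and Pdia6 made 2 called lower (all transcripts 3.9%), and the retained-intron Calr transcript was 1 called higher (all transcripts 4.94%). That transcript may be listed only through its HF-HI values, so its call does not show that the members disagree in direction. With log2 size factor as a covariate 1 of the 11, Pdia6, was called, and 533 of all transcripts. None of the 11 passed the adjusted threshold of 0.1, which 0 of 10370 transcripts passed in limma on the VSD, where 916 had an unadjusted p under 0.05. With voom on the recovered reads these counts over all transcripts were 0 and 888. The median log2 ratio of the 11 transcripts was −0.02, beside −0.00 for all transcripts, 7 of them lay below 0 and 4 above, and 5 lay within 0.05 of 0. In 0 of the 11 did the groups separate, and in 1, the coding Calr transcript, the Sham median was above all 8 HF-HI libraries (all transcripts 2.91%).

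**Figure D2:**
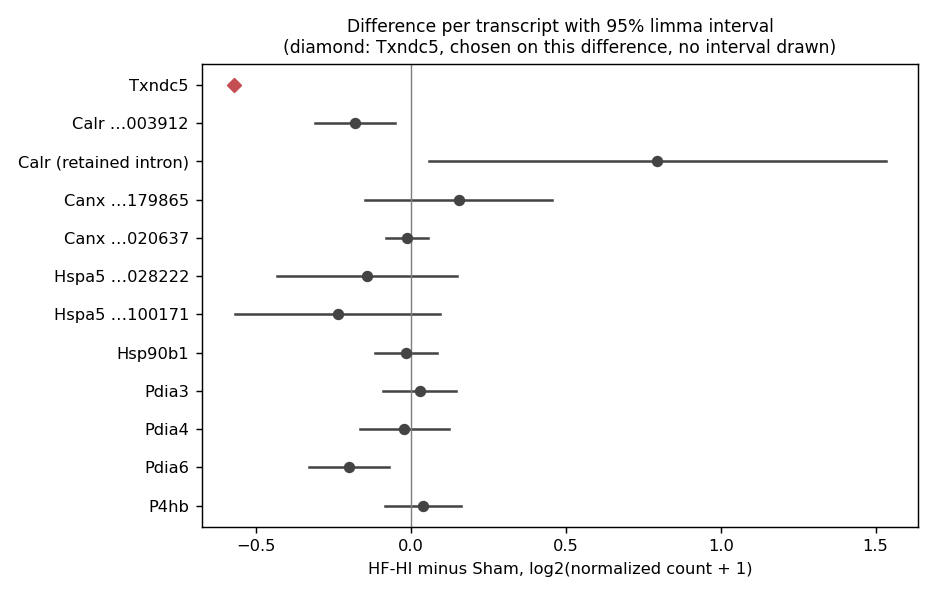
Difference of each member transcript between HF-HI and Sham in log2(normalized count + 1) (x axis), with the limma 95% interval as a line, and Txndc5 as a diamond without an interval. Calr (coding) and Pdia6 lie below 0, the retained-intron Calr transcript lies above 0, and the other 8 intervals include 0.

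Among the disulfide isomerases, Pdia6 (ERp5), which also binds and modulates the stress sensor Ern1, was called lower. Its transcript (ENSMUST00000057288, chr12:17266545-17284770, plus strand, 2175 bases) had 507 ± 43.6 normalized counts across Sham and 441 ± 36.7 in HF-HI (SD, n = 7 and 8), 87.0% of Sham and a log2 ratio of −0.20. The limma unadjusted p was 0.00548 and the Benjamini-Hochberg adjusted p was 0.383.

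Pdia6 in Sham replicates 1 to 7 was at 476, 482, 508, 487, 592, 470 and 537 normalized counts. In HF-HI replicates 1 to 8 it was at 519, 405, 409, 429, 437, 425, 440 and 465 normalized counts. So 7 of 8 HF-HI libraries were below all Sham libraries, and HF-HI replicate 1 overlapped them. The share of all transcripts that reach such a count was not computed, so the count is a description. In the libraries with a size factor above 0.8 the log2 ratio was −0.17 (limma unadjusted p = 0.0393), without HF-HI replicate 2 it was −0.18 (limma unadjusted p = 0.0115), and with the depth covariate it gave limma unadjusted p = 0.0421. The log2 difference of Pdia6 on log2(normalized count + 1) had a 95% interval from −0.33 to −0.07. The same difference of Txndc5, on which that gene was chosen, was −0.57.

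Pdia3 (ERp57), the isomerase that works with calreticulin and calnexin on glycoproteins, was at 886 ± 86.1 normalized counts across Sham and 901.5 ± 51.9 in HF-HI, a log2 ratio of 0.02 (limma unadjusted p = 0.642, adjusted p = 0.922). Its 95% interval on log2(normalized count + 1) ran from −0.09 to 0.15. Sham libraries spanned 829.2 to 1071 normalized counts with a median of 838, HF-HI libraries spanned 802 to 968 with a median of 897, and the groups overlapped. The 3 HF-HI libraries of lowest depth held the 3 highest HF-HI values of Pdia3, 943 to 968, the reverse of their place for Txndc5.

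P4hb (PDI), the archetype of the family, had a log2 ratio of 0.04, with 603 ± 23.1 normalized counts across Sham and 621 ± 62.9 in HF-HI (limma unadjusted p = 0.495, adjusted p = 0.874; 95% interval −0.08 to 0.16). Its Sham values lay between 574 and 632 normalized counts with a median of 615, and its HF-HI values between 554 and 745 with a median of 615. As with Pdia3, the 3 shallowest HF-HI libraries held its 3 highest HF-HI levels, 635 to 745. In the deeper libraries and with the depth covariate the P4hb and Pdia3 differences on the VSD turned to the other sign, to between −0.03 and −0.01, and stayed above an unadjusted limma p of 0.05.

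Pdia4 (ERp72), a large isomerase of the family, had 409 ± 44.1 normalized counts across Sham and 401 ± 28.6 in HF-HI, a log2 ratio of −0.03 (limma unadjusted p = 0.736, adjusted p = 0.945; 95% interval −0.17 to 0.12). Sham libraries ran from 340 to 465 normalized counts with a median of 409 and HF-HI libraries from 356 to 446 with a median of 404, so the HF-HI range lay within the Sham range.

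Calr (calreticulin), the soluble lectin chaperone and calcium store of the ER lumen, was listed with a pair of transcripts that went in opposite directions. The coding transcript (ENSMUST00000003912, chr8:84841850-84846934, minus strand, 2184 bases) had 1529 ± 69.4 normalized counts across Sham and 1353 ± 142 in HF-HI, 88.5% of Sham, with a log2 ratio of −0.18 (limma unadjusted p = 0.00828, Benjamini-Hochberg adjusted p = 0.405). The retained-intron transcript (ENSMUST00000154774, chr8:84842596-84844916, 943 bases), which is annotated as non-coding, had 106 ± 46.0 normalized counts across Sham and 191 ± 96.9 in HF-HI, a log2 ratio of 0.85 (limma unadjusted p = 0.0335, adjusted p = 0.530). Its Sham mean lay under the lowest mean over all libraries of any listed transcript, 107.9. Its listing may thus rest on its HF-HI values, which favours a higher call.

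For coding Calr, Sham replicates 1 to 7 had 1442, 1567, 1590, 1548, 1611, 1437 and 1506 normalized counts. HF-HI replicates 1 to 8 had 1528, 1451, 1350, 1234, 1531, 1352, 1155 and 1225 normalized counts. All 8 HF-HI libraries were below the Sham median of 1548 (all transcripts 2.91%), and 5 of them were below every Sham library. For the latter count the share of all transcripts was not computed. The log2 ratio was −0.13 in the libraries with a size factor above 0.8 (limma unadjusted p = 0.0366) and −0.19 without HF-HI replicate 2 (limma unadjusted p = 0.00647). With the depth covariate the unadjusted limma p was 0.0795.

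For the retained-intron Calr transcript, Sham replicates 1 to 7 had 68.7, 56.3, 133, 64.5, 180, 134 and 103 normalized counts. HF-HI replicates 1 to 8 had 119, 171, 147, 353, 66.6, 235, 299 and 140 normalized counts. HF-HI replicates 4, 6 and 7 lay above every Sham library, and the other 5 overlapped the Sham range. In the deeper libraries the log2 ratio was 0.42 (limma unadjusted p = 0.238), and with the depth covariate the VSD difference was 0.03 (limma unadjusted p = 0.593) against 0.16 without it, so this call did not hold once depth entered the fit.

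As a share of all listed Calr counts, the retained-intron transcript took 6.40% ± 2.51 in Sham (3.47% to 10.1%) and 12.5% ± 6.32 in HF-HI (4.17% to 22.3%). HF-HI replicates 4 and 7, at 22.3% and 20.6%, are of low depth, and HF-HI replicate 6, at 14.8%, has the next lowest size factor of the HF-HI group, 0.813. An exact two-sided permutation of this share over 6435 splits gave p = 0.0308, and 0.0923 after Benjamini-Hochberg adjustment over the shares of 3 genes. In the deeper libraries the share was 6.40% across Sham and 9.25% in HF-HI (exact permutation p = 0.157), and 7.86% in HF-HI without replicate 6. The share was chosen after the values had been seen, and since both transcripts share exons, their reads were split between them by the authors' estimate. With the counts of both transcripts summed, Calr was at 1635 ± 94.1 normalized counts across Sham and 1545 ± 96.8 in HF-HI, with a voom log2 difference of −0.07 (limma unadjusted p = 0.156).

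**Figure D3:**
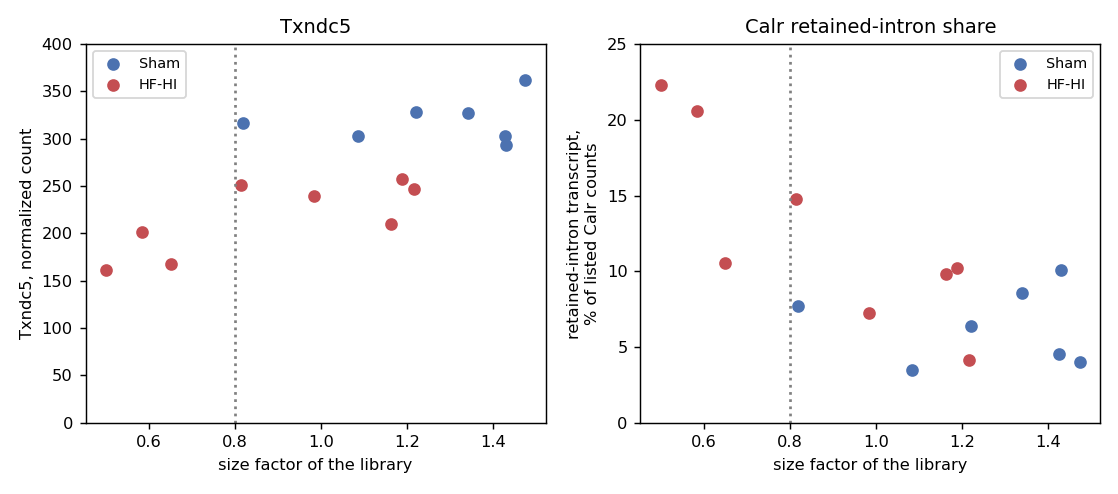
Txndc5 normalized count (left) and retained-intron share of listed Calr counts in percent (right) against the size factor of each library, Sham in blue and HF-HI in red, with a dotted line at a size factor of 0.8. The 3 HF-HI libraries left of the line have the lowest Txndc5 values, 162 to 202, and the 5 HF-HI libraries right of it are at 210 to 257.5. All HF-HI libraries lie below all Sham libraries.

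Canx (calnexin), the membrane-bound counterpart of Calr, did not follow it. Its main transcript (ENSMUST00000020637, chr11:50294467-50325673) had 3229 ± 77.3 normalized counts across Sham and 3202 ± 163 in HF-HI, a log2 ratio of −0.01 with a 95% interval of −0.08 to 0.05 on log2(normalized count + 1) (limma unadjusted p = 0.685, adjusted p = 0.933). Sham libraries ran from 3102 to 3341 normalized counts and HF-HI libraries from 2996 to 3568, and the highest value was that of HF-HI replicate 2. The minor Canx transcript (ENSMUST00000179865, chr11:50293961-50325673) was at 210 ± 46.9 and 232 ± 42.2 normalized counts, a log2 ratio of 0.15 (limma unadjusted p = 0.306; interval −0.15 to 0.46), and its share of Canx was 6.09% across Sham and 6.78% in HF-HI (exact permutation p = 0.342).

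Hspa5, the ER Hsp70 and a common readout of ER stress, was listed with a long and a short coding transcript. The long one (ENSMUST00000028222, chr2:34771970-34777547) had 822 ± 171 normalized counts across Sham and 743 ± 129 in HF-HI, a log2 ratio of −0.15 (limma unadjusted p = 0.302, adjusted p = 0.792). The short one (ENSMUST00000100171, chr2:34772095-34776531) had 609 ± 88.4 and 528 ± 138 normalized counts, a log2 ratio of −0.21 (limma unadjusted p = 0.157, adjusted p = 0.700).

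The short Hspa5 transcript ranged from 465 to 727 normalized counts across Sham and from 324 to 755 in HF-HI, and the highest value of either group was that of HF-HI replicate 2. Without that library its limma unadjusted p was 0.0404, and it was 0.0285 in the libraries with a size factor above 0.8. Its 95% interval on log2(normalized count + 1), −0.568 to 0.094, had the lowest lower bound of the 11. All 11 intervals lay above the Txndc5 difference of −0.571, but this bound nearly reached it, and Txndc5 was chosen on that value. Setting the intervals against it is therefore no test of whether the members differ from Txndc5. Summed over both transcripts, Hspa5 was at 1431 ± 198 normalized counts across Sham and 1271 ± 67.8 in HF-HI, with a voom log2 difference of −0.15 (95% interval −0.30 to 0.00; limma unadjusted p = 0.0568, adjusted p = 0.540).

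Hsp90b1, the ER Hsp90, had 1922 ± 145 normalized counts across Sham and 1898 ± 99.1 in HF-HI, a log2 ratio of −0.02 (limma unadjusted p = 0.726, adjusted p = 0.942). Its interval of −0.12 to 0.08 on log2(normalized count + 1) was one of the narrower ones, and its HF-HI libraries (1748 to 2034) lay within the range of its Sham libraries (1741 to 2127). With reads summed per gene and fitted by voom, 1 of the 8 other member genes, Pdia6, had an unadjusted p under 0.05 (limma unadjusted p = 0.00964, adjusted p = 0.340; log2 difference −0.18), against 9.53% of 7869 genes. The same per-gene log2 difference of Txndc5 was −0.51.

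Per length, Txndc5 was the least abundant of the 9 genes. In Sham the level per kilobase of transcript was 903 ± 18.9 normalized counts for Canx, 812 ± 65.8 for Calr, 680 ± 51.5 for Hsp90b1 and 457 ± 59.5 for Hspa5. It was 319.9 ± 31.1 for Pdia3, 233 ± 20.0 for Pdia6, 211 ± 8.08 for P4hb, 170.3 ± 18.4 for Pdia4 and 112 ± 8.19 for Txndc5. The Calr value sums a pair of transcripts, and its coding transcript alone was at 700.0 ± 31.8 normalized counts per kilobase, close to Hsp90b1. Both lectin chaperones and the Hsp90 and Hsp70 chaperones stood above all isomerases. The Sham ranges of neighbours in this order overlapped for Canx and Calr, Calr and Hsp90b1, and Pdia6 and P4hb, and were apart for the others. In HF-HI Txndc5 was at 76.3 ± 13.3 normalized counts per kilobase and still last. Pdia6 exceeded P4hb per kilobase in 7 of 7 Sham libraries and in 2 of 8 HF-HI libraries.

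Within the groups, Txndc5 did not vary with the other members beyond what permutation of the libraries gave. The log2 summed counts, centred within each group, were correlated over 15 libraries for Txndc5 with each of the 8 other genes, and 0 of the 8 had a Benjamini-Hochberg adjusted permutation p under 0.05. The strongest relation was negative, with Canx (Pearson r = −0.59, permutation p = 0.0414, adjusted 0.263; Spearman rho = −0.43, permutation p = 0.131, adjusted 0.522), and r was −0.28 without the 2 libraries farthest from the Txndc5 median. With Pdia6, the isomerase called lower, r was 0.26 (permutation p = 0.392, adjusted 0.666) and rho was 0.26 (permutation p = 0.383, adjusted 0.524), and without the 2 farthest libraries r was 0.08. With P4hb, r was −0.54 over all libraries (permutation p = 0.111, adjusted 0.295; rho = −0.40, permutation p = 0.198) but 0.72 within Sham and −0.71 within HF-HI, a difference that was not tested.

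The other 8 genes were correlated with each other in the same way, and no test compared their pairs with those of Txndc5. Of their 28 pairs 24 had a positive r, with a median of 0.37, and 2 of the 36 pairs of members had an adjusted permutation p under 0.05 on Pearson's r and 0 on Spearman's rho. These were Hspa5 with Pdia6 (r = 0.79, permutation p = 2.7e-04, adjusted 0.00972; rho = 0.75, permutation p = 0.00233, adjusted 0.0644; r without the 2 farthest libraries 0.68) and Calr with Hsp90b1 (r = 0.73, permutation p = 0.00220, adjusted 0.0396; rho = 0.74, permutation p = 0.00358, adjusted 0.0644; r without the 2 farthest libraries 0.60). Both genes of each of these pairs have a full ERSE match. Canx, which also has one, had r = 0.10 with Hspa5 and −0.12 with Pdia6. Pdia3, which matched 9 of the 10 fixed letters, had r = 0.74 with Hspa5 (permutation p = 0.0147, adjusted 0.176). Its rho was 0.57 (permutation p = 0.0366, adjusted 0.167), and r without the 2 farthest libraries was 0.34. Whether the element has a part in these correlations was not tested. The points share the size factor of each library, and the share of positive pairs among other genes was not computed. Without Sham replicate 5, 22 of the 28 pairs were positive, the median r was 0.24, and 0 pairs passed on Pearson's r (adjusted permutation p = 0.173 for both pairs, with r of 0.67 and 0.66). On Spearman's rho, Pdia3 with P4hb then passed (rho = 0.83, adjusted permutation p = 0.0166; r = 0.72, adjusted permutation p = 0.173).

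Sham replicate 5 had the highest Sham level of 8 of the 12 member transcripts (66.7%), whereas 17.7% of all 10370 transcripts were highest there among the Sham libraries. With transcripts summed per gene it was highest for 7 of the 9 member genes. The 7 genes were Hspa5, Pdia3, Pdia6, Pdia4, Hsp90b1, Calr and Canx, and the other 2, Txndc5 (293.0 normalized counts) and P4hb (574), were at their lowest Sham level in the same library. Summed Hspa5 was at 1827 normalized counts there against 1254 to 1529 in the other Sham libraries, and Pdia3 at 1071 against 829.2 to 896. Pdia6 was at 592 against 470 to 537. The 7 high genes, isomerases among them, were there at 1.04 (Canx) to 1.34 (Hspa5) times the mean of the other Sham libraries. Txndc5 was at 0.91 and P4hb at 0.94 times that mean. The pattern was noticed in the values, without a test. With each library left out in turn, this one included, Pdia6 kept an unadjusted limma p between 8.4e-04 and 0.0132 and the coding Calr transcript one between 0.00277 and 0.0187.

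Some genes of the unfolded protein response were high in Sham replicate 5 too, and some were not. Among the Sham libraries it was highest for 8 of the 18 transcripts of that list (44.4%), 5 of 23 of the cochaperone list (21.7%) and 1 of 24 of the degradation list (4.17%). The share was 37.5% in the disulfide, 24% in the N-glycan and 13% in the translocon list. Outside the ER lists it was 33.3% for astrocyte markers and 0% to 21.1% for the other cell type lists, beside 17.7% of all transcripts. Xbp1, the transcription factor spliced by Ern1, was at 777 normalized counts there against 457 to 536 in the other Sham libraries and 478 to 599 in HF-HI. Dnajb11, an Hspa5 cochaperone from the cochaperone list, was at 439 against 301 to 349 and 298 to 349. Atf6 was at 1276 against 1003 to 1126 in the other Sham libraries and 975 to 1169 in HF-HI, while Asns, a target of Atf4, was at 614, under the 618 to 729.6 of the other Sham libraries. Herpud1 (415), Sel1l (1383 and 322), Hyou1 (419 and 199) and Manf (205), also known targets of the response, lay within the range of the other Sham libraries. These genes did not pass the test between the groups: Xbp1 was at 543 ± 107 normalized counts across Sham and 539 ± 46.3 in HF-HI (limma unadjusted p = 0.976), with limma unadjusted p = 0.631 for Atf6 and 0.828 for Dnajb11.

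**Figure D4:**
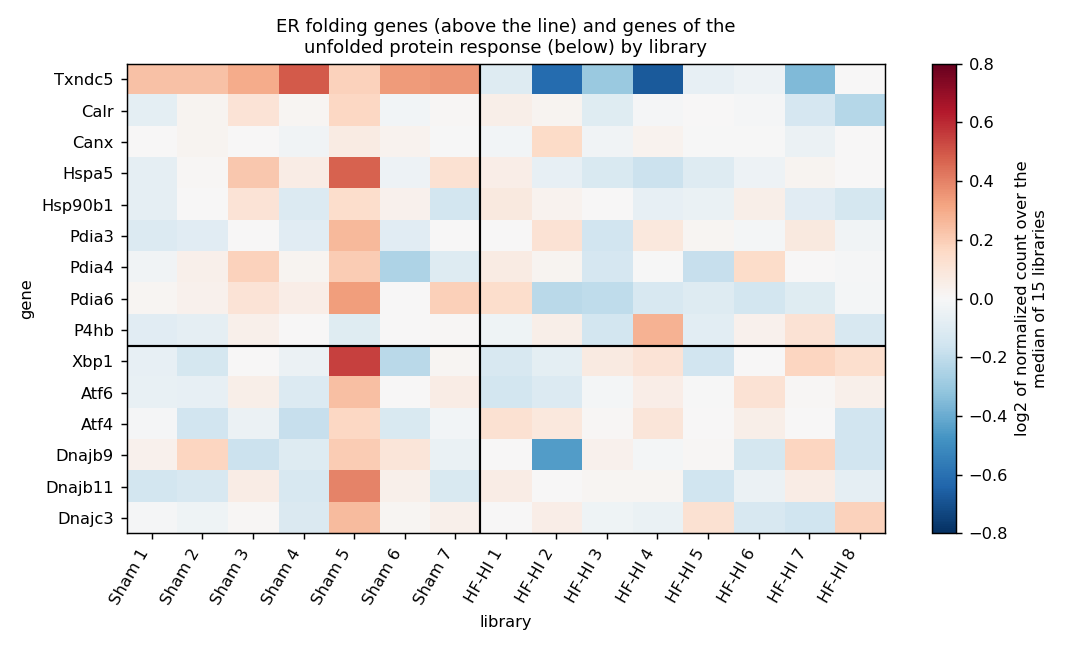
Heat map of the 9 member genes (above the line) and 6 genes of the unfolded protein response or its targets (below) in each library, coloured by log2 of the normalized count over the median of the 15 libraries. Each of these 6 genes was highest of all libraries in Sham replicate 5. Asns, Herpud1, Hyou1, Manf and Sel1l, which were highest in other libraries, are not drawn. Txndc5 is high across Sham and low across HF-HI, whereas in Hspa5, Pdia3, Pdia6, Xbp1 and Dnajb11 the darkest red cell is Sham replicate 5.

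Beyond the members, 6 lists of other ER genes were examined, which held 161 genes, 119 of them listed with 137 transcripts. Of these 137, 16 (11.7%) had an unadjusted limma p under 0.05, 8 lower and 8 higher, beside 8.83% of all transcripts, and 0 passed the adjusted threshold in limma. The median log2 ratio was −0.02. Adjusted limma p-values of the named transcripts ranged upward from 0.206. Values for the deeper libraries or with the depth covariate are not given for these lists, so how far their calls hold with depth is not shown.

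Among other disulfide isomerases and thiol oxidases, together with related ER genes of the same list, 4 of 24 transcripts were called (16.7%), 3 higher and 1 lower, with a median log2 ratio of −0.00. Qsox1 (higher) and Ero1lb (lower) are thiol oxidases, and the other 2, P4ha1 and Mia3, neither isomerise nor form disulfides. Qsox1, a sulfhydryl oxidase that makes disulfides de novo, was higher in 8 of 8 HF-HI libraries than the Sham median, at 100.6 ± 18.7 and 144 ± 18.8 normalized counts, a log2 ratio of 0.52 (limma unadjusted p = 7.2e-04, adjusted p = 0.267). Its Sham mean lay under 107.9, the lowest mean over all libraries of any listed transcript. Its place in the table may thus rest on its HF-HI values, which favours a higher call. P4ha1, the catalytic partner of P4hb in prolyl 4-hydroxylase, had 211 ± 34.7 and 277 ± 49.9 normalized counts for 1 transcript (a log2 ratio of 0.40, limma unadjusted p = 0.00673), but 127 and 117 for its other listed transcript (limma unadjusted p = 0.343). Ero1lb, the oxidase that recharges P4hb, had 217 normalized counts across Sham and 196 across HF-HI (a log2 ratio of −0.15, limma unadjusted p = 0.0388), and Mia3, a cargo receptor for collagen export, went from 934 to 998.8 (a log2 ratio of 0.10, limma unadjusted p = 0.0475).

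Among ER cochaperones and prolyl isomerases, 1 of 23 transcripts was called (4.35%), from Calu, a calcium-binding protein of the lumen, with 387 and 351 normalized counts (a log2 ratio of −0.14, limma unadjusted p = 0.0285), while the other Calu transcript had a log2 ratio of 0.13 and was not called. In the N-glycan list 3 of 25 transcripts were called (12%). Ganab, the glucosidase that prepares glycans for Calr and Canx, was lower (a log2 ratio of −0.08, limma unadjusted p = 0.0291), and the mannosidase-like Edem3 and Edem1 were higher (log2 ratios 0.12 and 0.11, limma unadjusted p = 0.0414 and 0.0420). ER-associated degradation had 1 of 24 called (4.17%), the ubiquitin ligase Rnf139 (368 and 329.8 normalized counts, log2 ratio −0.16, limma unadjusted p = 0.00881). The unfolded protein response list had 2 of 18 called (11.1%), both higher: 1 of 5 transcripts of Nfe2l1, a factor of proteasome gene expression (ENSMUST00000081775, a log2 ratio of 0.39, limma unadjusted p = 0.0188; the other 4 were not called, at log2 ratios of −0.44, −0.43, −0.05 and 0.52), and Mbtps2, the protease that releases Atf6 (a log2 ratio of 0.18, limma unadjusted p = 0.0193).

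The signal recognition particle and translocon list had 5 of 23 transcripts called (21.7%), 4 lower and 1 higher, with a median log2 ratio of −0.06. Srp54b was at 850.0 ± 95.5 and 663 ± 58.0 normalized counts (a log2 ratio of −0.36, limma unadjusted p = 1.8e-04, adjusted p = 0.206). It is a near-identical copy of Srp54a (347 and 409 normalized counts, limma unadjusted p = 0.0871) and Srp54c (637 and 677, limma unadjusted p = 0.306), so how reads were split among them is uncertain. Srprb, a subunit of the receptor for the particle, had 169 normalized counts across Sham and 131 across HF-HI (a log2 ratio of −0.36, limma unadjusted p = 0.0124), and Spcs3 of the signal peptidase went from 998 to 943 (a log2 ratio of −0.08, limma unadjusted p = 0.0372). Sec61a1, the pore of the translocon, was higher at 385 and 433.5 normalized counts (a log2 ratio of 0.17, limma unadjusted p = 0.00731). The remaining one, Srp72 (a log2 ratio of −0.12, limma unadjusted p = 0.0417), is named to complete the count, after its value was seen.

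**Figure D5:**
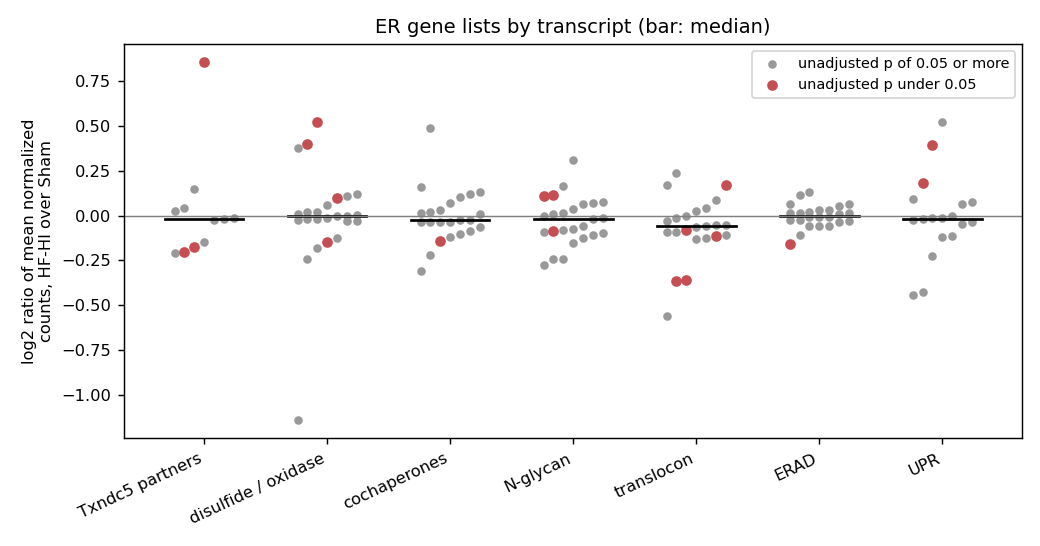
Log2 ratio of mean normalized counts, HF-HI over Sham (y axis), for each transcript of the 8 other member genes and of the 6 wider ER lists (x axis), with red points for an unadjusted limma p under 0.05 and a bar at the median of each list. Medians lie between −0.06 and −0.00, and red points stand on both sides of 0 in the members and in the disulfide, N-glycan and translocon lists.

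The genes around Txndc5 on chromosome 13 were then looked up. Its gene span (38500079 to 38528824) overlaps on the other strand 224 bases of Bmp6, 780 bases of Gm47994 and 1422 bases of Gm31834, for which no transcript was listed, and whether counting used strand was not stated. Within 200 kb the only listed gene was Eef1e1, a component of the multi-tRNA synthetase complex (chr13:38644207-38659058), at 164 ± 17.5 normalized counts across Sham and 137 ± 19.2 in HF-HI, a log2 ratio of −0.26 (limma unadjusted p = 0.0180, adjusted p = 0.476).

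The VSD of each transcript was also compared with that of Txndc5 within the groups (n = 15 libraries, centred per group), and the closest transcripts reported here were not ER folding genes by name. Among them were Zbtb38 (ENSMUST00000152594, r = 0.85), Pcdh10 (ENSMUST00000170695, r = 0.81), an unnamed transcript (ENSMUST00000113628, r = 0.81) and a retained-intron transcript of Plcb1 (ENSMUST00000130524, r = 0.79), where the 99th percentile over all transcripts was 0.65. For Zbtb38 r was 0.40 within Sham and 0.93 within HF-HI. Between the groups, Zbtb38 had a log2 ratio of 0.01 (limma unadjusted p = 0.845) and the unnamed transcript 0.02 (limma unadjusted p = 0.875). Pcdh10 was lower in HF-HI, at −0.12 (limma unadjusted p = 0.0211), as was the Plcb1 transcript, at −0.27 (limma unadjusted p = 0.0405). These correlations are a description, and all points share the depth of their library.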

How the data were processed

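RNA from dissected cortex was prepared with a stranded total RNA kit after ribosomal RNA depletion. Per the study's methods, the authors aligned reads to mm10 with STAR, counted reads per transcript with eXpress, and took size factors and variance-stabilized values from DESeq2. The annotation release is not given in the sources used here. The deposited values are variance-stabilized on a log2 scale, 1 column for each of the 7 Sham and 8 HF-HI libraries and 10370 transcripts, and rare transcripts were not analysed here (lowest mean 107.9 normalized counts).

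The transformation was inverted from the shared value of a count of 0 (9.81). Size factors were set so that the values became whole reads, and 100% of them did within a tolerance of 0.1 reads. Normalized counts are reads divided by the size factor, and 1 read was worth 0.679 to 2.00 normalized counts. Transcripts were named from GENCODE M21 (10241 of 10370 matched), and promoters came from a RefSeq table (GRCm38.p6).

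Each transcript was tested with limma 3.58.1 (R 4.3.3) on the deposited log2-scale values, with no term but group. The eBayes step used a trend, and tests were two-sided with HF-HI minus Sham as the difference. P-values were adjusted by Benjamini-Hochberg over all transcripts at 0.1, the threshold of the study. Called means an unadjusted p under 0.05. No transcript was tested on the list alone. Intervals on log2(normalized count + 1), with a pseudocount of 1, came from the same model. Correlations used 100000 permutations of libraries within groups. The code was tested on simulated data.

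The members, the gene lists and the rule for named genes were chosen with earlier results of these data known. That rule named every member transcript, up to 4 called transcripts with the smallest p in each of 6 wider ER lists, the 5 transcripts most correlated with Txndc5, and listed neighbours of Txndc5. Of the 5 correlated transcripts, 1 is not reported here. The ER and cell type lists were written from general knowledge. Alternatives changed the eBayes prior, depth, scaling, filter, scale, test, library weights and the libraries used. The fit on libraries with a size factor above 0.8, the retained-intron share (also without HF-HI replicate 6) and the omission of Sham replicate 5 from the correlations between members were added after the data had been seen.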

Additional observations from a re-analysis of the deposited data

Results flagged for a closer look

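In 76 groups of values a lone high or low library was looked for by Dixon's ratio of the gap to the range, and 8 groups passed its 95% critical value, where chance gives about 1 in 20. Sham replicate 5 was the lone high library for Pdia3 (1071 normalized counts, next 896), Xbp1 (777, next 536), Dnajb11 (439, next 349) and Dnajc3, an Hspa5 cochaperone (766, next 660.2). Xbp1, Dnajb11, Dnajc3 and Atf4 had been taken into this search after their values were seen. HF-HI replicate 2, the library apart on the first principal component, was the lone high one for the main Canx transcript (3568 normalized counts, next 3225) and for Canx summed over its transcripts (3785, next 3469). HF-HI replicate 3 was the lone low HF-HI library for Qsox1, at 103 normalized counts where the next was 138. HF-HI replicate 8 was the lone low one for Atf4, the factor downstream of Eif2ak3, at 756 normalized counts where the next was 842. Txndc5 had no such library in either group. The source of these lone values was not tested.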

How the results depend on the processing

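The count of transcripts at an unadjusted limma p under 0.05 was 916, and 533 with log2 size factor as a covariate, and 748 to 987 when each library was left out in turn. The count past the adjusted threshold was 0, and 0 to 1 with a library left out: Rtn3 without Sham replicate 5, Nrxn3 without HF-HI replicate 2, and A330023F24Rik without HF-HI replicate 5. It was 2 (Numbl and Nrxn3) with size factors above 0.8, and 1 with reads summed per gene in voom. That gene was Txndc5, which this contrast chose, so the count is no test of it. Of the 11 other member transcripts, 3 were called, 1 (Pdia6) with the depth covariate, and 2 to 4 with a library left out, and with gene sums 1 of 8 genes was. Pdia6 was called in all 25 alternatives run on it and the coding Calr transcript in all but the depth covariate. The retained-intron Calr transcript lost its call in 11 of 24, among them the depth covariate, voom (limma unadjusted p = 0.135), library weights, and the omission of Sham 1, 2 or 4 or of HF-HI 4, 6 or 7 (up to limma unadjusted p = 0.0708). A filter at a mean of 200 normalized counts dropped that transcript. The retained-intron share differed by 6.06 percentage points, and by 2.85 (exact permutation p = 0.157) with size factors above 0.8 and 6.33 without HF-HI replicate 2.

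The Txndc5 difference of −0.15 on the VSD was −0.57 in log2(normalized count + 1), −0.49 in voom per transcript and −0.51 per gene, scales that do not compress low counts, and −0.16 to −0.13 with a library left out. Correlations of Txndc5 with the 8 members gave 0 pairs past the threshold under every library left out. Differences near 0 changed sign: Pdia3 to −0.0099 and P4hb to −0.032 with the depth covariate, and to −0.0096 and −0.016 with size factors above 0.8. With a library left out, Hsp90b1 ranged from −0.023 to 0.0049 (above 0 without Sham replicate 3 or 5), Pdia4 from −0.021 to 0.0030 (Sham 3 or 5, or HF-HI 5), and the main Canx transcript from −0.025 to 0.00025 (HF-HI 7). The cause of these shifts was not tested.

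Same-numbered Sham and HF-HI libraries did not deviate together (correlations −0.138 to 0.0905, 1 of 7 best with its own number), so no pairing by number was seen. Such a check cannot exclude that the numbers mark a shared step of handling. With the replicate block 891 transcripts were called, 0 passed the adjusted threshold, 2 member transcripts were called, and the Txndc5 difference was −0.16. HF-HI replicate 8 has no Sham library of its number and adds nothing to the differences of that fit. The retained-intron Calr transcript then had a limma p of 0.0624. Counting precision limits Txndc5 most in the shallow libraries.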
